A study of Mus musculus with 8 samples.

Results

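The transcripts described here are the RefSeq noncoding RNAs on a mouse expression array, measured in neural stem cells grown at low or atmospheric oxygen. They were chosen as the non-control probes whose design accession begins with NR_, the RefSeq prefix for noncoding transcripts, leaving out H19 and Meg3. This gave 1211 probes for 1075 accessions among 55681 non-control probes. The comparison class was the 26536 probes whose accession begins with NM_, the prefix for messenger RNAs. The cells came from E13.5 embryos of OF-1 mice. From isolation on they grew without serum for at least 10 days and 2 to 3 passages, in 5% oxygen (hypoxia) or in 21% oxygen (normoxia). Each condition had 4 arrays, one from each of 4 experiments on different donors, with both oxygen levels run side by side, so that same-numbered arrays form 4 pairs. The labels name no transgene or drug in either group, and the cells were primary cultures, not a clone.

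Long noncoding RNAs are transcribed, and often spliced, like messenger RNAs but are not translated into a known protein. Some act on chromatin or on neighbouring genes, some host microRNAs or small nucleolar RNAs in their introns, and many have no assigned role. Cells meet low oxygen by stabilising the HIF alpha subunits, which pair with HIF1-beta at DNA elements whose core is ACGTG or GCGTG. By annotation, 862 of the probes belonged to long noncoding RNA genes, 238 to transcribed pseudogenes and 18 to noncoding isoforms of coding genes. A further 77 matched no gene in the reference table and keep their accession as a name.

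Promoters of the transcripts that changed are shown first because the HIF core can be read directly in them. The window runs from 250 bases before to 50 bases after the RefSeq start, on assembly GRCm38.p6, printed 5' to 3' along the transcript. Capitals mark ACGTG or GCGTG on either strand, and adjoining or overlapping matches run together, so a CACGTG counts on both strands. Gm16894, 1700001L05Rik and G630025P09Rik rose and hold the motif, Gdap10 rose without it, and Sox1ot fell and does not hold it.
Gm16894 promoter, chr1:40085802-40086101, minus strand: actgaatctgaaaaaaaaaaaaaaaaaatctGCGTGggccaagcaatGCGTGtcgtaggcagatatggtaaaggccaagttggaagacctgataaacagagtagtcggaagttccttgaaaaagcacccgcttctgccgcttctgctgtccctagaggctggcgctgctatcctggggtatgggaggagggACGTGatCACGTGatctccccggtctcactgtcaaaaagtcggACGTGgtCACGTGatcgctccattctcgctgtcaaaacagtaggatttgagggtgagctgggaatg
1700001L05Rik promoter, chr15:83367248-83367547, minus strand: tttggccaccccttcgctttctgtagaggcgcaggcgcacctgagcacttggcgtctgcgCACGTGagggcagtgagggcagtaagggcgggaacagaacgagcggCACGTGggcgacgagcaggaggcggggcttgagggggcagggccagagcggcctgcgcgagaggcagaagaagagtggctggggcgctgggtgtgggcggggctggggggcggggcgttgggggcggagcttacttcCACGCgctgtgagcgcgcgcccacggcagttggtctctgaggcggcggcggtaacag
G630025P09Rik promoter, chr11:69803419-69803718, plus strand: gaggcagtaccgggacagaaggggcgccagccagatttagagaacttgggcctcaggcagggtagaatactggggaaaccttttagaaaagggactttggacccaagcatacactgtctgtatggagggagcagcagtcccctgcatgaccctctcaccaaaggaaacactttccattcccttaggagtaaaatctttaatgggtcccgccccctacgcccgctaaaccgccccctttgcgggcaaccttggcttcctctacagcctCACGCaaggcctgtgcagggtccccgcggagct
Gdap10 promoter, chr12:32823866-32824165, plus strand: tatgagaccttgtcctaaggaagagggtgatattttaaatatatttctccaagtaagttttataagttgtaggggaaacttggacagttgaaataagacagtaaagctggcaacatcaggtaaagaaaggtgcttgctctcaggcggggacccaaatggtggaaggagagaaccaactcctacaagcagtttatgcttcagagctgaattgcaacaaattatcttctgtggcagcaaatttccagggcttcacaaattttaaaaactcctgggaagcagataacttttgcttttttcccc
Sox1ot promoter, chr8:12385521-12385820, plus strand: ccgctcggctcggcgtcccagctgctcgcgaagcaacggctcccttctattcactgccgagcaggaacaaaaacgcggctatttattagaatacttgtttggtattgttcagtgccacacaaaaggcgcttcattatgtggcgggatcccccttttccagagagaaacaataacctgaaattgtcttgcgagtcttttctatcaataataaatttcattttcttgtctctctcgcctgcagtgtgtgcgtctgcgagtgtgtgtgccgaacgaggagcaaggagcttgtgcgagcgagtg

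The Gm16894 window held 8 matches and the 1700001L05Rik window 5, while the window of G630025P09Rik held 1. RefSeq promoters were at hand for 16 genes of the transcripts that rose, as 17 windows, and 12 of these 17 held either motif. Bcor gave overlapping windows that share their match. Gm11110, Has2os and Gm10635 had no promoter in the reference table. Among all 32851 promoters of the reference table the share was 43.8%, and 203 of the 383 promoters of genes with a tested noncoding probe held one. Counted by gene, 11 of 16 risers held one, against 190 of 340 genes with a tested noncoding probe and 12628 of 27025 genes overall in the table. Among the transcripts that fell, 1 of 3 promoters held one. A match says only that these letters occur in the window, and no binding was measured.

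Mirg, a transcript that rose, is the microRNA-containing gene of the imprinted Dlk1-Dio3 domain. RefSeq places 10 microRNA genes within it, which give 19 mature microRNAs with 18 different seeds. Examples are printed 5' to 3' with the seed, bases 2 to 8, in capitals. The first pair shares its seed, and the rest show how different the other seeds are.
mmu-miR-453, chr12:109735669-109735692: aGGUUGCCucauagugagcuugca
mmu-miR-496a-5p, chr12:109739132-109739152: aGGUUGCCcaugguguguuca
mmu-miR-409-3p, chr12:109743204-109743225: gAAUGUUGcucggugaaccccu
mmu-miR-154-5p, chr12:109738438-109738459: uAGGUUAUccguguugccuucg
mmu-miR-410-3p, chr12:109743764-109743784: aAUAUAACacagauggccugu
mmu-miR-377-3p, chr12:109740553-109740574: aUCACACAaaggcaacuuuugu
The array measured the host transcript and not these mature products.

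On the 8 arrays 64.4% to 73.9% of non-control spots gave a signal well above background. The 75th percentile of a whole array lay between 1909 and 7352 intensity units. Levels are log2 signal relative to that percentile on the same array, so 0 is the percentile itself. Different probes' levels are not compared with each other. The labels were checked on coding genes: all 8 oxygen-responsive genes examined rose, among them Car9, a HIF target carbonic anhydrase, 19.1-fold, and all 10 neural stem cell and radial glia markers were detected on every array with none past the threshold. Of 5 meningeal fibroblast markers 3 rose (Col1a2, Dcn and Pdgfrb). Col1a1 at 2.05-fold (adjusted p = 0.0511) and Lum at 2.33-fold (adjusted p = 0.128) were also higher in hypoxia without passing. The list's summed signal was 0.980 to 4.67 times the percentile in normoxia and 2.04 to 8.83 times in hypoxia. Of 6 oligodendrocyte lineage markers Mbp rose (2.95-fold), with summed signals of 63.3 to 102.7 and 76.0 to 113.2 times. Sox10 at 3.41-fold (adjusted p = 0.107) and Pdgfra at 3.22-fold (adjusted p = 0.155) changed more without passing, while Olig2 was at 0.92-fold. Of 6 endothelial and mural markers Pdgfrb rose and Cldn5 fell, with summed signals of 1.15 to 4.10 and 1.58 to 3.28 times. No microglial, neuronal or astrocyte marker passed. The 4 astrocyte markers lay between 1.34-fold (Gfap) and 1.62-fold (S100b). The neuronal marker Dcx was at 2.43-fold (adjusted p = 0.0885), and the other neuronal markers lay between 0.96-fold (Tubb3) and 1.18-fold (Rbfox3). Of 4 erythroid markers Hba-a1 was well above background on all 8 arrays and did not pass (change 0.19, adjusted p = 0.573), while Hbb-bt was above it on none, and the list's summed signal was 0.0341 to 0.0529 and 0.0419 to 0.0671 times. The part of these other cell types in the results below was not tested, and in bulk RNA fewer cells of a type and less RNA per cell cannot be told apart.

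Noncoding transcripts were measured above background less often than messenger RNAs. The share of NR_ probes well above background was 58.8% ± 4.1 (SD, n = 4) in normoxia and 57.6% ± 3.5 (SD, n = 4) in hypoxia. For NM_ probes it was 79.5% ± 2.6 (SD, n = 4) and 78.9% ± 2.5 (SD, n = 4). On each of the 8 arrays the NM_ share lay above the NR_ share, by 19.01 to 23.5 percentage points, and the ranges of the oxygen groups overlapped within each class. On no array were 368 NR_ probes (30.4%) well above background, against 14.0% of NM_ probes. All 8 arrays measured 601 NR_ probes (49.6%), against 73.5% of NM_ probes. The filter, which asks for 3 of 4 arrays of either group, left 697 NR_ probes (57.6%) for testing.

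**Figure D1:**
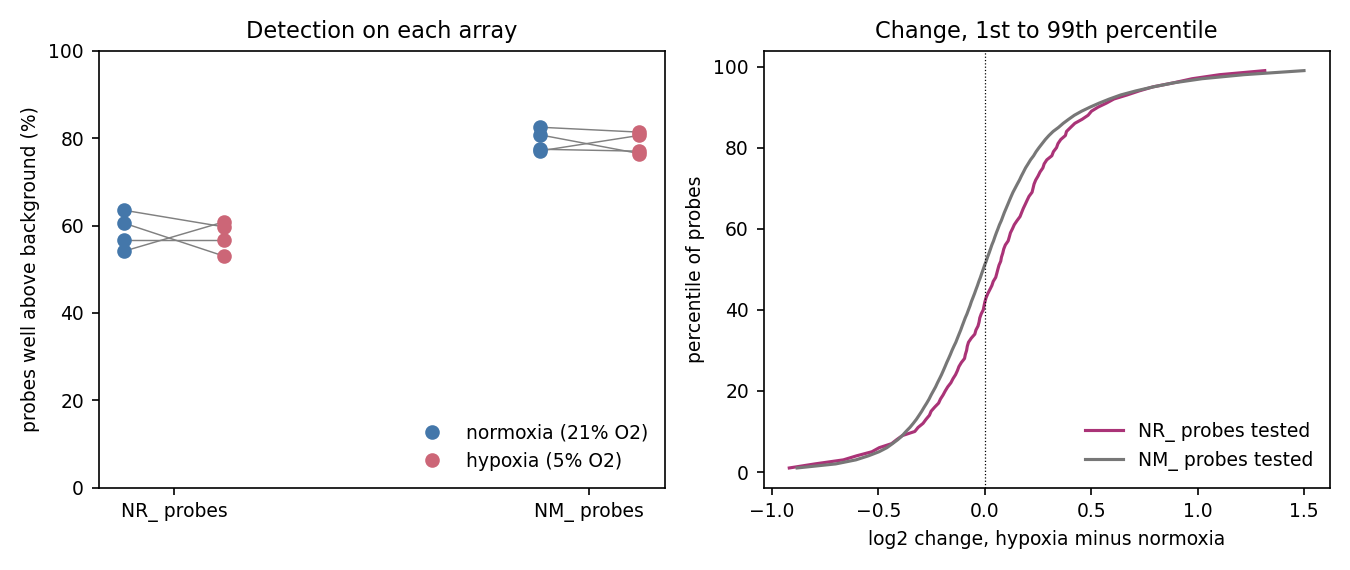
Left, percent of NR_ and NM_ probes well above background on each array, with lines joining same-numbered arrays. Right, percentiles 1 to 99 of the log2 change from normoxia to hypoxia among tested probes of each class. The NR_ points lie between 53.01% and 63.5% and the NM_ points between 76.5% and 82.5%, and the NR_ curve lies to the right of the NM_ curve around its middle.

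At 5% oxygen 47 of 697 tested NR_ probes passed an adjusted p of 0.05, of which 39 rose and 8 fell. Among them a probe of A930003A15Rik, of Gm12359 and of Gm3002 entered the test only through the group where it was higher. The Gm3002 probe was well above background on 2 normoxia and 3 hypoxia arrays, and its other tested probe did not pass (adjusted p = 0.0885). The 47 probes stand for 42 transcripts, 35 that rose and 7 that fell. All 47 moved one way in all 4 pairs, which selection by a paired fit favours. Of all tested NR_ probes 30.4% did so, and of all tested probes 27.7%. The share called was 6.74%, against 6.14% of NM_ probes and 4.79% of all 37650 probes tested. Over all probes 3.65% rose and 1.13% fell. The groups did not overlap for 41 NR_ probes, or 5.88%, against 4.66% of all probes, and 26 of the called probes were among them. The median log2 change of tested NR_ probes was 0.06 (quartiles -0.13 and 0.27), that of NM_ probes -0.01 and that of all probes 0.02. Within pairs the NR_ median exceeded the NM_ median by 0.11, 0.16, 0.0020 and 0.05, so pair 3 showed almost no gap. These shares and medians are descriptions, since probes are not replicates.

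These calls rest on comparing arrays within pairs. With no replicate block 1 NR_ probe passed, that of Gm11110, where 0.0983% of all probes did. Leaving out pair 3 left 5 rising and 3 falling NR_ probes, leaving out pair 1 left 17 and 4, leaving out pair 2 left 21 and 2, and leaving out pair 4 left 31 and 15. Probes of Gm11110, NR_038067, G630025P09Rik, BC006965, Sox1ot and A930003A15Rik (1 of its 2 probes) kept their call whichever pair was left out, and 11 called probes kept it in none of these fits. With arrays scaled to their median in place of the 75th percentile, 31 rose and 12 fell.

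**Figure D2:**
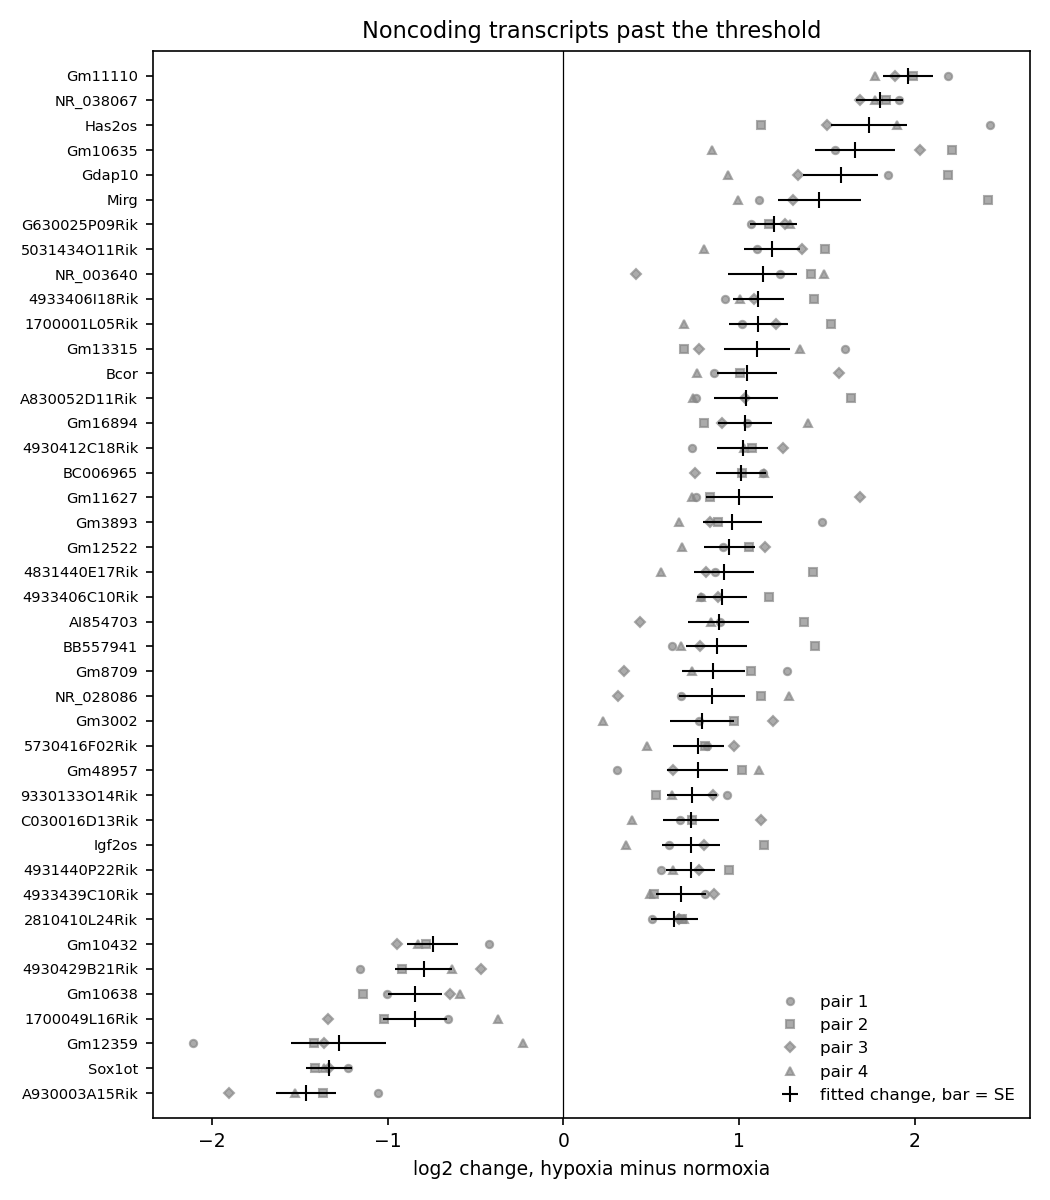
Log2 change from normoxia to hypoxia of the 42 noncoding transcripts past the threshold, 1 called probe each. Called probes measured on at least 3 arrays of both groups were preferred where there was one. Grey symbols are the 4 pairs, the tick is the fitted change and the bar its standard error. The fitted changes run from -1.47 for A930003A15Rik to 1.96 for Gm11110, and that of Gm12359 rests on 1 hypoxia array well above background. That of Gm3002 rests on 2 normoxia and 3 hypoxia arrays well above background. The other Gm3002 probe, well above it on 4 normoxia and 4 hypoxia arrays, did not pass and is not shown.

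Gm11110, a long noncoding RNA whose gene overlaps Tnfsf9, had the largest rise. Its level was -2.86, -2.12, -2.36 and -2.55 on the normoxia arrays of pairs 1 to 4, and -0.67, -0.12, -0.47 and -0.78 on the hypoxia arrays. The groups did not overlap. The change was 1.96 (SE 0.14), or 3.90-fold, with an adjusted p of 0.00137, and of 0.0320 with no replicate block. Tnfsf9 encodes the 4-1BB ligand, a costimulatory member of the TNF family. Its messenger RNA stood at 0.02, -0.02, -0.23 and -0.14 in normoxia and at 1.14, 1.58, 1.09 and 1.06 in hypoxia. That was a rise of 2.48-fold (log2 change 1.31, SE 0.14, adjusted p = 0.00396), again with no overlap. The relative strand of these genes was not known, and whether their probes read separate RNAs was not tested.

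The transcript NR_038067, which has no gene name in the reference table, rose almost equally in every pair. It was at -4.30, -3.44, -3.94 and -4.78 in normoxia and at -2.39, -1.60, -2.25 and -3.01 in hypoxia. Every hypoxia array lay above every normoxia array. The rise was 3.49-fold (log2 change 1.80, SE 0.13, adjusted p = 0.00137), and 0.0926 was its adjusted p with no replicate block.

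Has2os, named for lying on the strand opposite to the hyaluronan synthase gene Has2, rose 3.34-fold (log2 change 1.74, SE 0.21, adjusted p = 0.00525). Hyaluronan synthase 2 makes hyaluronan, a large sugar polymer of the extracellular matrix. The Has2os level was -5.57, -4.07, -4.49 and -5.63 in normoxia and -3.14, -2.94, -2.98 and -3.73 in hypoxia. The normoxia arrays were spread over a wider range than the hypoxia arrays, without overlap. Has2 itself was at -4.71, -2.03, -2.79 and -3.75 in normoxia and at -1.82, -0.44, -1.18 and -0.83 in hypoxia. It rose 4.77-fold (log2 change 2.25, SE 0.26, adjusted p = 0.00457). Its groups did not overlap either. Without pair 3 the adjusted p of Has2os was 0.0553. Whether either probe reads only its own strand was not tested.

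Gdap10 lies within the Nampt locus on the same strand, so that signal from a Nampt precursor and from Gdap10 cannot be told apart. Its level was -0.61, -0.14, -0.15 and -0.52 in normoxia and 1.24, 2.05, 1.19 and 0.41 in hypoxia. No hypoxia array fell within the normoxia range. This was a 2.99-fold rise (log2 change 1.58, SE 0.21, adjusted p = 0.00722, and 0.0640 without pair 3). Nampt, the rate-limiting enzyme of NAD salvage, rose 1.90-fold (log2 change 0.93, SE 0.15, adjusted p = 0.0137).

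Mirg rose 2.75-fold (log2 change 1.46, SE 0.24, adjusted p = 0.0144). Its level was -5.04, -5.03, -5.51 and -4.24 in normoxia and -3.93, -2.61, -4.20 and -3.25 in hypoxia. The hypoxia arrays lay just above the normoxia range, and pair 2 had the largest difference, at 2.42. Without pair 3 the adjusted p was 0.103. Other microRNA hosts did not pass, as given with their list below.

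**Figure D3:**
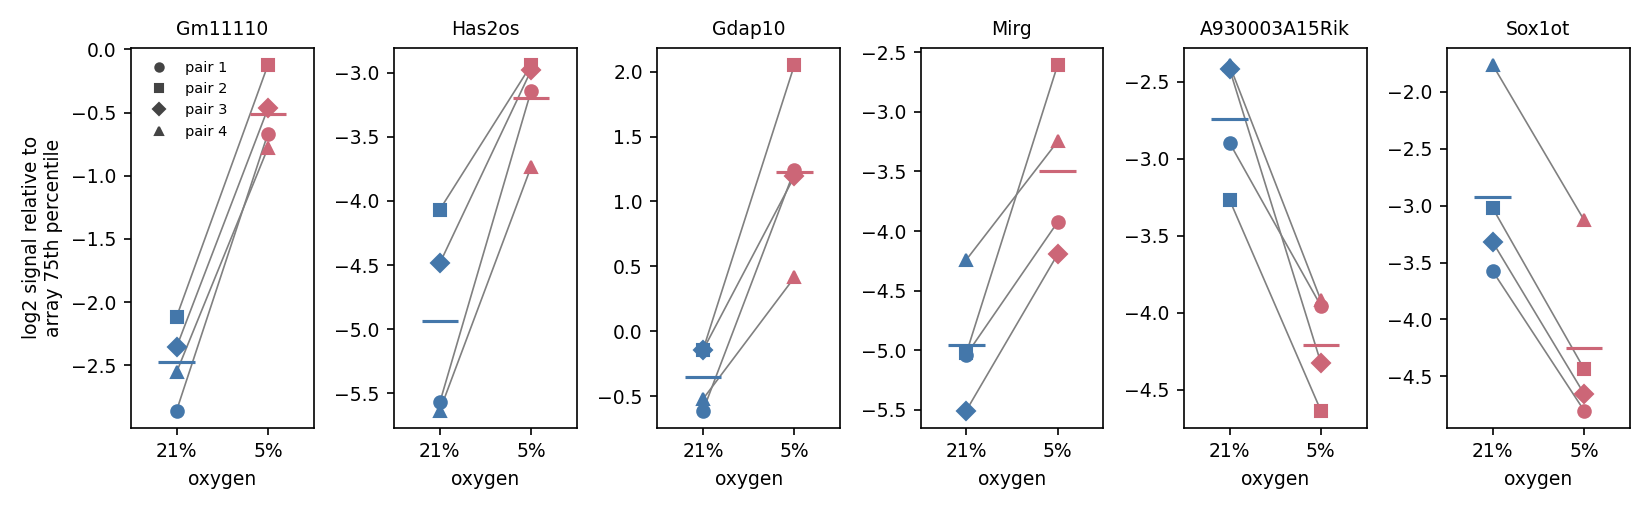
Log2 signal relative to the array's 75th percentile at 21% and 5% oxygen for 6 noncoding transcripts, each panel with its own scale. Symbols mark the pair, grey lines join same-numbered arrays and horizontal bars are group means. Gm11110, Has2os, Gdap10, Mirg and A930003A15Rik show no overlap between groups, while Sox1ot overlaps between groups but drops by a similar step in every pair.

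Further risers of at least 2-fold were mostly transcripts with no assigned role. Gm10635 rose 3.16-fold, from a mean level of -6.30 ± 0.30 (SD, n = 4) to -4.64 ± 0.46 (SD, n = 4), and lost its call without pair 3 (adjusted p = 0.0789). G630025P09Rik, on the opposite strand to Tmem102, was at -2.97, -2.52, -3.44 and -3.61 in normoxia and at -1.90, -1.34, -2.18 and -2.32 in hypoxia. All its hypoxia values were the higher ones, with a rise of 2.29-fold (SE of the log2 change 0.13, adjusted p = 0.00405). 5031434O11Rik rose 2.28-fold, with overlapping groups whose pairs differed by 0.80 to 1.49. NR_003640 rose 2.20-fold, but by 0.41 in pair 3 against at least 1.23 in the other pairs. 4933406I18Rik rose 2.16-fold. Both probes of 1700001L05Rik passed, at 2.16-fold and 1.82-fold. Gm16894 rose 2.05-fold, A830052D11Rik 2.06-fold and Gm13315 2.15-fold. The remaining 20 rising transcripts had rises of 1.55-fold to 2.03-fold.

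Bcor encodes a corepressor that is part of a Polycomb complex, and the array carries a probe for a noncoding isoform as well as one for its messenger RNA. The noncoding isoform was at -1.84, -1.97, -2.06 and -1.97 in normoxia and at -0.98, -0.97, -0.49 and -1.21 in hypoxia. It rose 2.07-fold without overlap (log2 change 1.05, SE 0.17, adjusted p = 0.0144). The messenger RNA probe changed by 0.01 (SE 0.16, adjusted p = 0.990), with pairs at -0.14, 0.44, -0.06 and -0.21. In every pair the isoform's difference was the larger, though the difference between the probes was not tested. Of the 14 other tested probes for noncoding isoforms of coding genes none passed, with changes from -0.53 to 0.13.

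Among the 7 transcripts that fell, A930003A15Rik had the largest fall on a probe measured in both groups. On this brighter of its probes it was at -2.89, -3.26, -2.42 and -2.39 in normoxia and at -3.95, -4.63, -4.32 and -3.92 in hypoxia. The groups stood apart, at 2.76-fold lower in hypoxia (log2 change -1.47, SE 0.17, adjusted p = 0.00441). The dimmer probe was well above background on all 4 normoxia arrays and on 0 of 4 hypoxia arrays, so it entered the test only through the group where it is high and adds no support of its own. Against the lowest signal well above background, or the probe's own value where higher, it was at least 2.23-fold lower (means -5.70 and -7.29, adjusted p = 0.00895).

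Sox1ot overlaps Sox1, a transcription factor gene of neural progenitors, on the same strand. One of its probes was at -3.58, -3.02, -3.32 and -1.76 in normoxia and at -4.80, -4.43, -4.65 and -3.13 in hypoxia. Pair 4 stood above the others in both conditions, so the groups overlapped, yet each pair fell by 1.22 to 1.41. The fall was 2.52-fold (log2 change -1.33, SE 0.13, adjusted p = 0.00268, and 0.411 with no replicate block). The other probe, well above background on 3 arrays of each group, changed by 0.28 (SE 0.15, adjusted p = 0.348), so the probes for Sox1ot disagree. Sox1 messenger RNA changed by -0.38 (SE 0.14, adjusted p = 0.201).

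Gm12359 was well above background on 4 normoxia arrays and 1 hypoxia array. It was at -5.00, -5.92, -5.65 and -4.74 in normoxia and at -7.11, -7.34, -7.01 and -4.97 in hypoxia, and pair 4 differed by only -0.23. It too entered the test only through normoxia. Its fitted log2 change of -1.28 (SE 0.27, adjusted p = 0.0375) is set against hypoxia values mostly not well above background, and is no measure of the size of the fall. The smaller falls were 1.80-fold for the transcribed pseudogene 1700049L16Rik, 1.80-fold for Gm10638, 1.74-fold for 4930429B21Rik and 1.68-fold for Gm10432. Gm10432 had groups that did not overlap, and it lost its call whichever pair was left out.

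Coding genes beside these transcripts were then read on the same arrays, through gene positions in RefSeq. Of 17 pairs in which a called noncoding transcript overlapped a tested coding gene, the coding gene also passed in 4, or 23.5%, each time with a rise in both. Among 199 overlapping pairs whose noncoding member did not pass, 10 coding genes did, or 5.03%, of which 6 moved with the sign of the noncoding transcript. For nearest genes without overlap the counts were 1 of 16, or 6.25%, and 20 of 258, or 7.75%. Over all tested NM_ probes 6.14% passed. The overlapping genes that rose were Tnfsf9, Has2 and Nampt, given above, and Tiparp. The relative strand was not known for Gm11110 with Tnfsf9 or for 4931440P22Rik with Tiparp. Whether the probes of an overlapping pair read separate RNAs was not tested. Tiparp, a gene of the poly-ADP-ribose polymerase family, rose 1.77-fold (adjusted p = 0.0188). The transcript overlapping it, 4931440P22Rik, rose 1.65-fold (adjusted p = 0.0267) on one probe and changed by 0.03 on its other. The nearest gene that rose was Mvd, of the mevalonate pathway, at 1.75-fold (adjusted p = 0.0365) beside 9330133O14Rik at 1.66-fold (adjusted p = 0.0274). On its other probe 9330133O14Rik changed by 0.47 (adjusted p = 0.0935). The called probes of 4931440P22Rik and 9330133O14Rik lost their call whichever pair was left out.

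Other neighbours did not move with their transcript past the threshold. Setd7, overlapped by 5031434O11Rik, changed by -0.11 (adjusted p = 0.722). Sox9, the coding gene nearest to BC006965, changed by 0.13 (adjusted p = 0.742), while BC006965 rose 2.02-fold (adjusted p = 0.00829). Bin1, overlapped by A830052D11Rik, changed by 0.08 (adjusted p = 0.794). Il1r2 opposite Gm16894 changed by -0.09 (adjusted p = 0.893), and Tmem102 opposite G630025P09Rik by 0.09 (adjusted p = 0.857). The coding genes next to Mirg (Rtl1) and Gm10635 (Col12a1) had no tested probe.

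**Figure D4:**
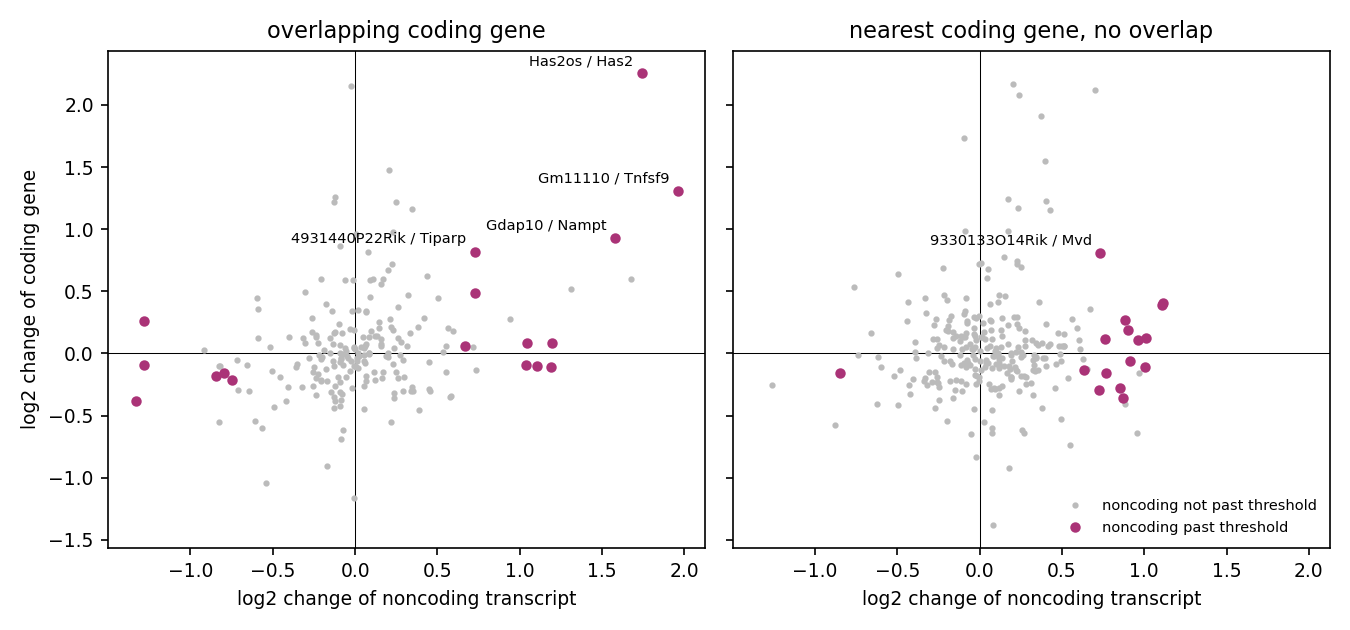
Log2 change of a noncoding transcript (horizontal) and of the coding gene that overlaps it (left) or lies nearest without overlap (right). Filled points have a noncoding transcript past the threshold, small grey points do not, and names mark the points where both passed. The 4 named overlapping points and the named nearest point all lie above and to the right of 0.

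Lists of noncoding RNAs by role mostly held few changes. Among imprinted transcripts, whose expression depends on the parent of origin, 2 of 9 tested probes rose and none fell, with a median change of -0.03. These were Mirg and Igf2os, which is antisense to Igf2. Igf2os was dim, at -6.25, -6.84, -6.73 and -6.18 in normoxia and -5.64, -5.69, -5.93 and -5.82 in hypoxia. Its groups were close but did not overlap, and the rise was 1.65-fold (adjusted p = 0.0476). Igf2 changed by 0.49 (adjusted p = 0.106). Airn, which silences Igf2r on the paternal chromosome, changed by -0.42 and -0.24 on its probes, Kcnq1ot1 by -0.03 and 0.01, and Peg13 by -0.05.

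Of 9 tested probes on the list of microRNA hosts 1 rose, Mirg, and none fell, with a median of 0.17. The list also holds Mirt1 (change -0.17), for which a host role was not checked. Mir17hg, host of the proliferation-linked miR-17-92 cluster, was at 1.02, 0.97, 0.52 and 0.95 in normoxia and at 0.74, 0.15, -0.19 and 0.99 in hypoxia. Its change of -0.44 did not pass (adjusted p = 0.226), and pair 4 showed no drop. Mir9-3hg, host of the neural microRNA miR-9, changed by -0.43 (adjusted p = 0.155), with every pair lower in hypoxia. Mir100hg changed by 0.47 (adjusted p = 0.224).

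None of 12 tested probes of small nucleolar RNA hosts passed, with a median of 0.06 and a range from -0.20 to 0.96. The top of that range was Snhg18, at -2.17, -2.23, -1.40 and -1.40 in normoxia and -1.36, -0.24, -0.95 and -0.84 in hypoxia. All 4 hypoxia arrays were higher than all normoxia arrays, yet the adjusted p was 0.0768. Snhg7 changed by 0.36 (adjusted p = 0.227). None of 4 probes of nuclear architecture RNAs passed. Neat1, the scaffold of paraspeckles, was at 0.99, 1.53, -0.13 and 0.45 in normoxia and 2.31, 1.17, 1.46 and 1.78 in hypoxia. It was higher in 3 pairs and lower in pair 2, with a change of 0.97 (SE 0.30, adjusted p = 0.124). Malat1, of nuclear speckles, changed by 0.03 (adjusted p = 0.951), and the probes of Pvt1 by 0.22 and 0.28. The list of p53, growth arrest and hypoxia-linked RNAs holds these genes and Dleu2, and none of its 5 probes passed (median 0.22).

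For 11 tested probes of neural lineage RNAs the median was -0.08 and none passed. Tug1 had probes at -0.32, -0.14 and 0.06, and Six3os1 had probes at -0.26 and -0.03. X-linked chromatin RNAs had none of 5 past the threshold (median 0.28). Xist probes changed by 0.01 and 0.28, and Jpx, an activator of Xist, by 0.32 (adjusted p = 0.353). Structural small RNAs had the lowest median, -0.28, with none of 8 past the threshold. The U2 gene Rnu2-10 was at -0.38, -1.49, -1.48 and -1.25 in normoxia and -0.83, -2.61, -2.78 and -1.44 in hypoxia. It was lower in every pair, with a change of -0.76 (adjusted p = 0.0850). Snora47 changed by -0.49 (adjusted p = 0.239).

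Named by their relation to another gene, 2 of 42 antisense or opposite-strand probes rose, Has2os and Igf2os, and none fell (median -0.0033). Of 31 probes for named pseudogenes none passed (median -0.09). Smarca5-ps changed by -0.82 (adjusted p = 0.0653) on one probe and by -0.28 (adjusted p = 0.361) and -0.23 (adjusted p = 0.451) on its others, and Znf41-ps by -0.60 (adjusted p = 0.0700). Among RIKEN clone transcripts 15 of 262 tested probes rose and 4 fell, and among predicted gene models, whose names begin with Gm, 12 of 164 rose and 3 fell. Set against the whole array, where 3.65% rose and 1.13% fell, these are descriptions of the lists.

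**Figure D5:**
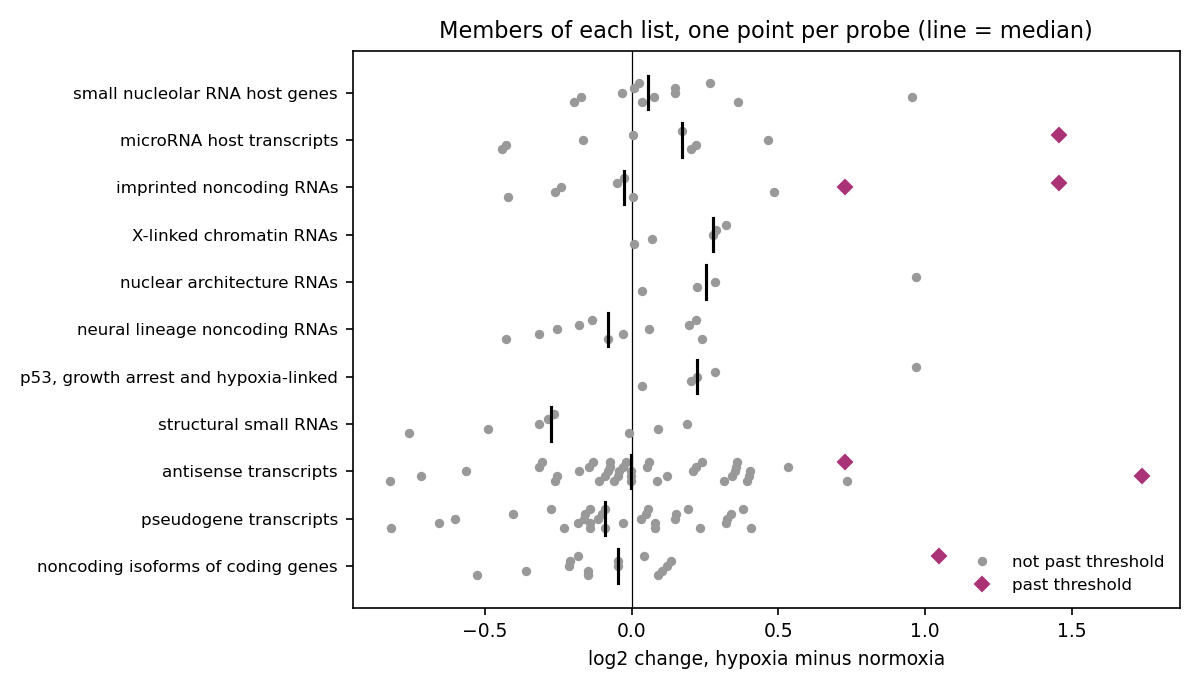
Log2 change from normoxia to hypoxia for every tested probe of 11 lists of noncoding RNAs, with a vertical line at each list's median. Diamonds passed the threshold and grey points did not. The diamonds are Mirg (in 2 lists), Igf2os (in 2 lists), Has2os and the noncoding isoform of Bcor.

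By annotation class, 26 of 456 tested long noncoding RNA probes rose and 7 fell, or 7.24% called. Of 151 probes for transcribed pseudogenes 8 rose and 1 fell, or 5.96%. Such pseudogenes share sequence with other copies, so the signals of Gm13315, Gm8709, Gm3893 and Gm3002 may include those copies, which was not tested. Both called probes of Gm8709 rose, by 0.85 and 0.79, and its remaining probe changed by 0.49 (adjusted p = 0.146). Across the 72 accessions with at least 2 tested probes, 11 had a called probe, and in 10 of these all probes had the same sign. Among the 10 is 4931440P22Rik, whose other probe changed by 0.03 (adjusted p = 0.961). No such count is given for the whole array or for accessions without a call, so these are descriptions. In 4 of the 11 every tested probe passed, A930003A15Rik among them, whose dimmer probe adds no support, as given above. Gm3002 is among the 11 only through a probe that entered the test through hypoxia alone. Sox1ot was the exception in sign.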

How the data were processed

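Cy3-labelled RNA of 8 cultures was read on 1-colour Agilent arrays of 1 slide, so slide and scan could not be tested as batches. The deposited intensity values, per the file headers the processed (background-subtracted, detrended) spot signal, came, per the submitters' processing notes, from Agilent Feature Extraction 10.7.3.1. The authors' deposited log2 table equals, within 0.01 for 99.78% to 99.81% of probes per array, log2 processed signal minus the array's 75th percentile over probes minus each probe's median. Its column medians ran from -0.12 to 0.25, and it served as an alternative.

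Here log2 processed signal minus the 75th percentile over non-control spots was used. Flagged spots were dropped, spots of a probe were averaged, and probes well above background on at least 3 of 4 arrays of either group were kept. Accessions were named through RefSeq genes of GRCm38.p6, which named 1134 of 1211 NR_ probes. The array's design names another build, and positions served only to find neighbours, promoters and microRNAs. A coding neighbour was read on its NM_ probe of highest mean signal.

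Hypoxia was compared with normoxia in limma 3.58.1 (R 4.3.3; lmFit, eBayes) with the replicate number as a block, and Benjamini-Hochberg adjustment over all 37650 probes. The pairing comes from the series' text on different donors and the protocol's parallel culture. Deviations of same-numbered arrays correlated at 0.74, 0.51, 0.37 and 0.62, each above any other number. On simulated arrays (200 changed of 37597 probes, 3 draws) this fit recovered 0% of 1.5-fold, 22.7% of 2-fold, 66.0% of 3-fold and 80.0% of 5-fold changes, with 1 false of 254 calls. Changes drawn there were the same in every pair, and a smaller share of probes changed than the 4.79% called in the data. The recovery rates therefore need not hold for the data. The number of arrays limits the precision.

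Members, lists and tests were chosen with earlier results of these data known. Named transcripts were up to 15 per direction past the threshold by size of change, with their coding neighbours, and for each list up to 4 called members, or where none was called the 2 of lowest p. Other transcripts named in the text were chosen after their values were seen. Alternatives covered the block, background correction, scaling, filter, probe summary, flags, moderation, the authors' table and leaving out each pair.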

Additional observations from a re-analysis of the deposited data

Results flagged for a closer look

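Of 70 groups of 4 arrays examined among the named noncoding probes, 2 had an array far from the others, where chance gives about 1 in 20. For Gm12359 hypoxia array 4 was at -4.97 and the next highest at -7.01, a gap of 0.861 of the group's range. For Jpx normoxia array 2 was at -4.20 and the next highest at -4.70, a gap of 0.881 of the range.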

How the results depend on the processing

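The counts of called probes depended on the model more than on the scaling. Against 39 rising and 8 falling NR_ probes, no replicate block left 1 and 0 (49 and 21 at an unadjusted p under 0.05), no filter on dim probes 5 and 3, and trend and robust moderation gave 61 and 20. Leaving out 1 pair gave 5 to 31 rising and 2 to 15 falling. Falling counts also moved to 13 with normexp background and to 14 among probes detected on all 8 arrays. The share of NR_ probes called, 6.74%, was 0.143% with no replicate block, 0.661% with no filter, 11.6% with trend and robust moderation and 1.15% to 6.60% without 1 pair. The NM_ share, 6.14%, was 0.129%, 1.16%, 10.1% and 1.35% to 6.03% in the same order. Read by the scanner's laxer flag for a positive and significant signal, detection averaged 77.9% of NR_ and 89.8% of NM_ probes. Over 35 named noncoding probes, 23 of them called, and 16 alternatives that could give a value, 450 values kept direction and side of the threshold, 87 lost the call, 15 gained one and none reversed. The gap between the NR_ and NM_ medians ran from 0.05 to 0.10 over these alternatives. Dim probes are limited by signal over background: 368 NR_ probes were not well above it on any array.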

Other observations

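Several noncoding RNAs known from other lineages or from differentiating neurons were dim in these cultures. Dlx1as, Dlx4os and Tunar were not well above background on any array, and neither were Mir1a-1hg, a muscle microRNA host, and Mirt2. Dlx6os1, found in the forebrain interneuron lineage, was well above background on 1 normoxia and 1 hypoxia array. Related transcripts went the other way: Dlx6os2 and the microRNA host Mir124-2hg were each on 4 normoxia and 4 hypoxia arrays well above background. Firre, an X-linked RNA of nuclear organisation, was above it on 2 normoxia arrays and 0 hypoxia arrays and was not tested.

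Of the 47 called probes 42 were well above background on all normoxia arrays and 44 on all hypoxia arrays. Among NR_ probes detected on all 8 arrays 6.66% passed, and 7.29% of those detected on fewer. For NM_ probes these shares were 5.73% and 11.8%, and for all tested probes 4.48% and 7.29%. Probes detected on fewer arrays include some that entered the test only through the group where they were higher. The shares of the 2 strata are therefore descriptions. An unadjusted p under 0.05 was found for 172 NR_ probes, or 24.7% of those tested, against 22.3% of NM_ probes and 19.01% of all.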
